A study of Rattus norvegicus with 4 samples.

Results

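The 10 acute phase genes described here encode plasma proteins whose production by the liver changes during inflammation: A2m, Lcn2, Lbp, Cp, Hamp, Hp, Hpx, Orm1, Crp and Apcs. They were taken by name: the symbol column of the deposited files holds all 10, and for 9 of them the RefSeq accession in the same line leads to the same gene, while the line of Cp has none. Each of the 10 had 1 probe, out of 20174 probes for 20028 genes, and all 10 were above background on all 4 arrays. Liver RNA of Sprague-Dawley rats was hybridised to single-colour arrays, 1 array per group. The transgenic group carried a dominant negative form of connexin 32 (Cx32), the main gap junction protein of hepatocytes, and the wild-type group did not. Every group, wild type included, received diethylnitrosamine, a liver carcinogen, into the peritoneum at 10 weeks of age, and then 12 weeks of a methionine-choline deficient diet (MCDD), which causes steatohepatitis. In the transgenic luteolin and wild-type luteolin groups that diet contained luteolin, a plant flavonoid. No group was without carcinogen and diet, so the values do not show how far the genes stand from healthy liver. The sources used here do not give the sex, the luteolin dose, the promoter of the transgene or the number of rats behind each array.

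In inflammation, cytokines such as interleukin 6 and interleukin 1 reach hepatocytes, where the transcription factors STAT3, C/EBP and NF-kB act on acute phase genes. Proteins that increase are called positive and those that decrease negative acute phase proteins. In rats, alpha-2-macroglobulin (A2m), a broad protease inhibitor, is the classical strongly inducible member, while C-reactive protein (Crp) circulates also without inflammation. Hepcidin (Hamp), the hormone that limits iron export from cells, responds both to interleukin 6 and to bone morphogenetic protein (BMP) signals of iron status.

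The promoters of 4 members are shown because these genes stand on opposite sides of the luteolin comparison below: with quantile normalization Hamp and Lcn2 were lower with luteolin in both genotypes, and the pentraxins Crp and Apcs higher, while median centring put Lcn2 in wild type at 0.01 and Apcs in transgenic at -0.02. RefSeq promoter windows (build GRCr8) were held for 7 of the 10 members. Each line gives the 250 bases before the annotated start, 5′ to 3′ on the strand of the gene, and capitals mark matches on either strand to any of the motifs named after them. The positions are chr1:95300272-95300521 on the minus strand for Hamp, chr3:36081781-36082030 on the minus strand for Lcn2, chr13:87693812-87694061 on the plus strand for Crp and chr13:87906509-87906758 on the minus strand for Apcs.
Hamp: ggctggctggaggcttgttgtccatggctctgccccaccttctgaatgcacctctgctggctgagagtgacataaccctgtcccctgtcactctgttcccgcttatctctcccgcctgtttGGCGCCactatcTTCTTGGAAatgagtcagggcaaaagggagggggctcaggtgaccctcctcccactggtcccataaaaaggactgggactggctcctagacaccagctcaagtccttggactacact
Lcn2: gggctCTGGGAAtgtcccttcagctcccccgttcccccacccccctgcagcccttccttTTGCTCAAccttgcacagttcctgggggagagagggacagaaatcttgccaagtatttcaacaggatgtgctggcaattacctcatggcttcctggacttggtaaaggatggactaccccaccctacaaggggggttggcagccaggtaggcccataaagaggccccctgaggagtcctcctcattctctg
Crp: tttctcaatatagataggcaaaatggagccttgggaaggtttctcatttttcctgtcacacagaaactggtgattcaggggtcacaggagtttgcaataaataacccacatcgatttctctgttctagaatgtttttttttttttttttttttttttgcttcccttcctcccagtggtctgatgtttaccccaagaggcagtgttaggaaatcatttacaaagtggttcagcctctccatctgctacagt
Apcs: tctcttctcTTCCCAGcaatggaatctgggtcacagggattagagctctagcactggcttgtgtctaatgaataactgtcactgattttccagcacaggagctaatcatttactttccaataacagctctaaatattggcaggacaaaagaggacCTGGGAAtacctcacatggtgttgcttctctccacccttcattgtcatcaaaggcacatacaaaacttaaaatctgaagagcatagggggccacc
Searched were TTCNNNGAA (STAT), CTGGGAA (the acute phase interleukin 6 element), TTGCNNAA (C/EBP), an NF-kB motif (GGG, any 2 bases, then TTTCC) and GGCGCC (BMP response). The Hamp window held GGCGCC from base -129 to -124 and a STAT match from -117 to -109, which do not overlap. In the Lcn2 window CTGGGAA stood at -245 to -239 and a C/EBP match at -191 to -184. Apcs had CTGGGAA at -95 to -89 and, on the other strand, at -241 to -235. Crp had no match. Of 33469 promoter windows of the same length, 7.67% held the STAT letters, 9.56% CTGGGAA, 9.22% the C/EBP letters, 1.3% the NF-kB letters and 8.69% GGCGCC. C/EBP matches also occurred in Orm1, Cp and Hpx, so 4 of 7 members held one. These are letter matches and not measured binding.

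All values below are log2 intensities after background correction with an offset of 50 and quantile normalization between arrays, and ratios are differences of these values between 2 arrays. Because each group is a single array, the ratios come without any replicate check and the small number of arrays limits their precision. Values given as 4 numbers in a row follow the order transgenic, transgenic with luteolin, wild type, wild type with luteolin. Levels of different probes are not comparable, so genes are compared only through their ratios. Median raw intensity was 48.0 to 54.4 and the background constant 37.5 to 39.8. The members' mean raw intensity ran from 164 for Lcn2 to 36566 for Hpx, all above the median of each array. Of 10 listed hepatocyte markers 9 were on the array and all 9 were above background everywhere. In bulk tissue, fewer cells of a type and less RNA per cell cannot be told apart.

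Across the 4 arrays the members varied by a median range of 0.63, against 0.28 for the 4241 genes at least as bright as the dimmest member and 0.15 for all 14134 genes above background on all 4. A2m (0.81), Apcs (0.81) and Crp (0.80) varied the most and Hp (0.05) the least. Hp also ranked between 10 and 11 in raw brightness on every array, where quantile normalization leaves little room for a difference. Under quantile normalization no member was 2-fold apart in any of the 4 comparisons. With median centring A2m with luteolin in transgenic and Crp with luteolin in wild type (1.10) were, and in the authors' values A2m (-1.16) and Lcn2 (-1.03) in transgenic, Crp in wild type (1.09) and Apcs in transgenic against wild type with luteolin (-1.10). Under quantile normalization, with luteolin, 0.0907% of genes lay that far up and 0.167% that far down in transgenic, and 0.0675% up and 0.108% down in wild type. In transgenic against wild type these shares were 0.129% and 0.0475% without luteolin, and 0.104% and 0.0625% with it. With median centring 0.425% of genes lay 2-fold or more lower with luteolin in transgenic, and 0.155% higher in wild type. In the authors' values those shares were 6.03% and 1.88%. There 5.32% of genes lay 2-fold or more lower in transgenic against wild type with luteolin.

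**Figure D1:**
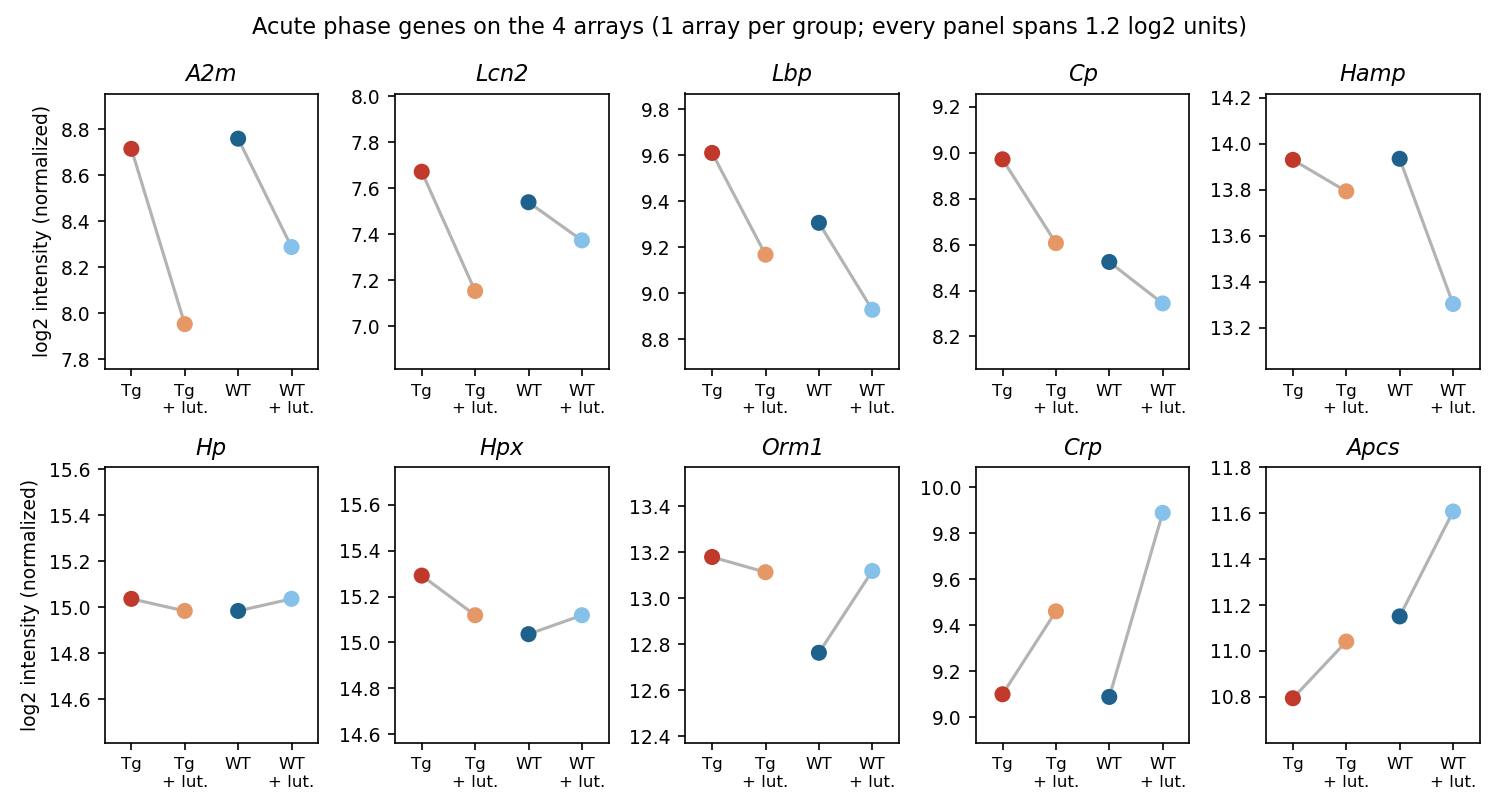
Normalized log2 intensity (vertical axis) of each acute phase gene on the transgenic (Tg), transgenic luteolin, wild-type (WT) and wild-type luteolin arrays, 1 point per array, with a line joining the arrays of the same genotype. A2m, Lcn2, Lbp, Cp and Hamp lie lower with luteolin in both genotypes, and Crp and Apcs lie higher, in these quantile-normalized values (median centring turns Lcn2 and Cp in wild type to 0.01 and 0.05 and Apcs in transgenic to -0.02). Hp, Hpx and Orm1 slope down in transgenic and up in wild type.

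Set against luteolin, the members fell into 3 groups. A2m, Lcn2, Lbp, Cp and Hamp were lower with luteolin in both genotypes (5 of 10, against 25.1% of all genes), and the pentraxins Crp and Apcs were higher in both (2 of 10, against 29.8%), apart from median centring, which gave 0.01 for Lcn2 and 0.05 for Cp in wild type and -0.02 for Apcs in transgenic. Hp, Hpx and Orm1 were lower in transgenic and higher in wild type. All genes outside the 25.1% and 29.8% had opposite signs, in either order, or a ratio of 0, so opposite signs were common. Both luteolin arrays lay below both arrays without luteolin for A2m, Lcn2, Lbp and Hamp (4 of 10, against 17.1% of all genes), and above both for Crp (1 of 10, against 20.4%). The question behind these comparisons is how luteolin relates to liver expression in rats with steatohepatitis.

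A2m read 8.71 in transgenic, 7.95 in transgenic with luteolin, 8.76 in wild type and 8.29 in wild type with luteolin. The arrays without luteolin were the 2 highest and lay 0.04 apart. With luteolin A2m was 1.70-fold lower in transgenic (log2 ratio -0.76) and 1.39-fold lower in wild type (-0.47). In transgenic only 0.677% of 14337 genes had a ratio of this size or larger. In the authors' globally normalized values, A2m stood at 289, 130, 305 and 239 in the same order, a 2.23-fold and a 1.28-fold difference. A2m was the only member 1.5-fold or more lower in transgenic (1 of 10, against 1.03% of genes) and none was 1.5-fold higher (against 0.488%), while median centring and the authors' values each put 4 members past 1.5-fold, against 3.35% and 20.2% of genes in either direction.

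Lcn2 encodes lipocalin 2, which withholds iron from bacteria by binding their siderophores. It read 7.67 in transgenic, 7.15 in transgenic with luteolin, 7.54 in wild type and 7.37 in wild type with luteolin, highest on the transgenic array. The luteolin ratio was -0.52 in transgenic (1.43-fold lower) and -0.17 in wild type. Lcn2 was the dimmest member, and with the authors' values it was 2.04-fold lower in transgenic (-1.03), or -0.77 less the median ratio of all genes. With an offset of 16 the ratio was -0.65. In wild type the sign depended on the scaling, with a ratio of 0.01 under median centring. Lcn2 is also a neutrophil granule gene. Of 11 neutrophil markers on the array, 7 were above background on all 4 arrays, and the granule genes Camp and Cd177 were not above background on any, as found after their values were seen. The 11 markers summed to background-subtracted intensities of 130, 91.9, 94.2 and 95.3. That sum was highest on the transgenic array, as Lcn2 was, and with the authors' factor per array it was 90.2, 71.4, 84.1 and 76.5. The normalized neutrophil markers had a median luteolin ratio of -0.01 in transgenic and a median transgenic against wild-type ratio of 0.00 without luteolin, and the part of neutrophils in the Lcn2 values was not tested.

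Lbp encodes lipopolysaccharide-binding protein, which hands bacterial endotoxin to CD14 and the TLR4 complex. Its 4 values were 9.61, 9.17, 9.31 and 8.93, lower with luteolin in each genotype. Its luteolin ratio was -0.44 in transgenic and -0.38 in wild type. Under quantile normalization this was the smallest gap between genotypes of any member (-0.06). With median centring the ratios were -0.68 and -0.08, and in the authors' values -0.69 and -0.18. The gap was then -0.60 and -0.51, and Hamp had the smallest. Cp encodes ceruloplasmin, the copper-carrying ferroxidase of plasma, and read 8.97, 8.61, 8.52 and 8.34 in the same order. For Cp the luteolin ratio was -0.36 in transgenic and -0.18 in wild type, and the latter became 0.05 under median centring. Both transgenic arrays lay above both wild-type arrays for Cp under quantile normalization. With luteolin its transgenic against wild-type ratio was -0.05 with median centring and -0.17 in the authors' values.

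Under quantile normalization Hamp had a larger luteolin ratio in wild type than in transgenic, unlike the other lower members, but with median centring it was -0.36 in transgenic and -0.29 in wild type. It read 13.93 in transgenic, 13.79 in transgenic with luteolin, 13.93 in wild type and 13.30 in wild type with luteolin. In these values the last array stood apart. Both luteolin arrays lay below both others here, with median centring and in the authors' values. In the authors' values the transgenic luteolin array was the lowest (9426, against 9662 in wild type with luteolin). With luteolin Hamp was 1.55-fold lower in wild type (-0.63), where 0.588% of 14805 genes had a ratio at least as large, and 1.10-fold lower in transgenic (-0.14). Hamp was the only member 1.5-fold or more lower in wild type (1 of 10, against 0.378% of genes), and no member was with median centring or with the authors' values, where Hamp stood at -0.39. The Hamp probe is at row 12176 of the deposited tables. Among 156 other genes within 100 rows of it, 5 were 1.5-fold or more lower in the same comparison, or 3.21%, while their median ratio was -0.01. Whether position on the array has a part in the Hamp value was not tested beyond this, and subtracting a running median over neighbouring rows left a ratio of -0.62.

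Both pentraxins were higher with luteolin, except Apcs in transgenic under median centring (-0.02). These pattern recognition proteins, C-reactive protein (Crp) and serum amyloid P component (Apcs), bind microbial surfaces and debris and activate complement. Crp read 9.10 in transgenic, 9.46 in transgenic with luteolin, 9.09 in wild type and 9.89 in wild type with luteolin. The 2 arrays without luteolin were 0.01 apart and below both luteolin arrays. Crp was 1.74-fold higher with luteolin in wild type (0.80), where 0.284% of genes had a ratio at least as large, and 1.28-fold higher in transgenic (0.36). Crp was the only member 1.5-fold or more higher in wild type (1 of 10, against 0.297% of genes), and with median centring or the authors' values Orm1 and Apcs were too, against 2.16% and 10.1% of genes.

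Apcs read 10.79, 11.04, 11.15 and 11.61, so both wild-type arrays lay above both transgenic arrays. Its luteolin ratio was 0.46 in wild type (1.37-fold) and 0.25 in transgenic (1.19-fold), and the latter became -0.02 under median centring. Probes of Apcs and A2m stand at rows 2029 and 2049 of the deposited tables, and their luteolin ratios had opposite signs. The running median there was 0.12 in the wild-type comparison. After it was subtracted, the wild-type ratio was 0.34 for Apcs and -0.59 for A2m. Hepatocyte markers had a median luteolin ratio of 0.27 in wild type and 0.12 in transgenic, below the pentraxins' values in each genotype, or 0.56 and -0.18 with median centring, and their part in these was not tested.

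Hp, Hpx and Orm1 encode haptoglobin, which captures free haemoglobin, hemopexin, which captures haem, and alpha-1-acid glycoprotein, a drug- and lipid-binding plasma protein. Orm1 read 13.18 in transgenic, 13.11 in transgenic with luteolin, 12.76 in wild type and 13.12 in wild type with luteolin. The wild-type array without luteolin stood alone below the other 3. The luteolin ratio of Orm1 was 0.36 in wild type and -0.07 in transgenic. Hpx read 15.29, 15.12, 15.04 and 15.12, with ratios of -0.17 in transgenic and 0.08 in wild type. Hp read 15.04, 14.98, 14.98 and 15.04, with ratios of -0.05 and 0.05. Raw spot values of Hp were 38694, 28962, 27247 and 36988 in that order. In the authors' values, which apply 1 factor per array, the luteolin ratio of Hp was -0.26 in transgenic and 0.29 in wild type, or -0.00 and 0.10 less the median ratio of all genes.

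**Figure D2:**
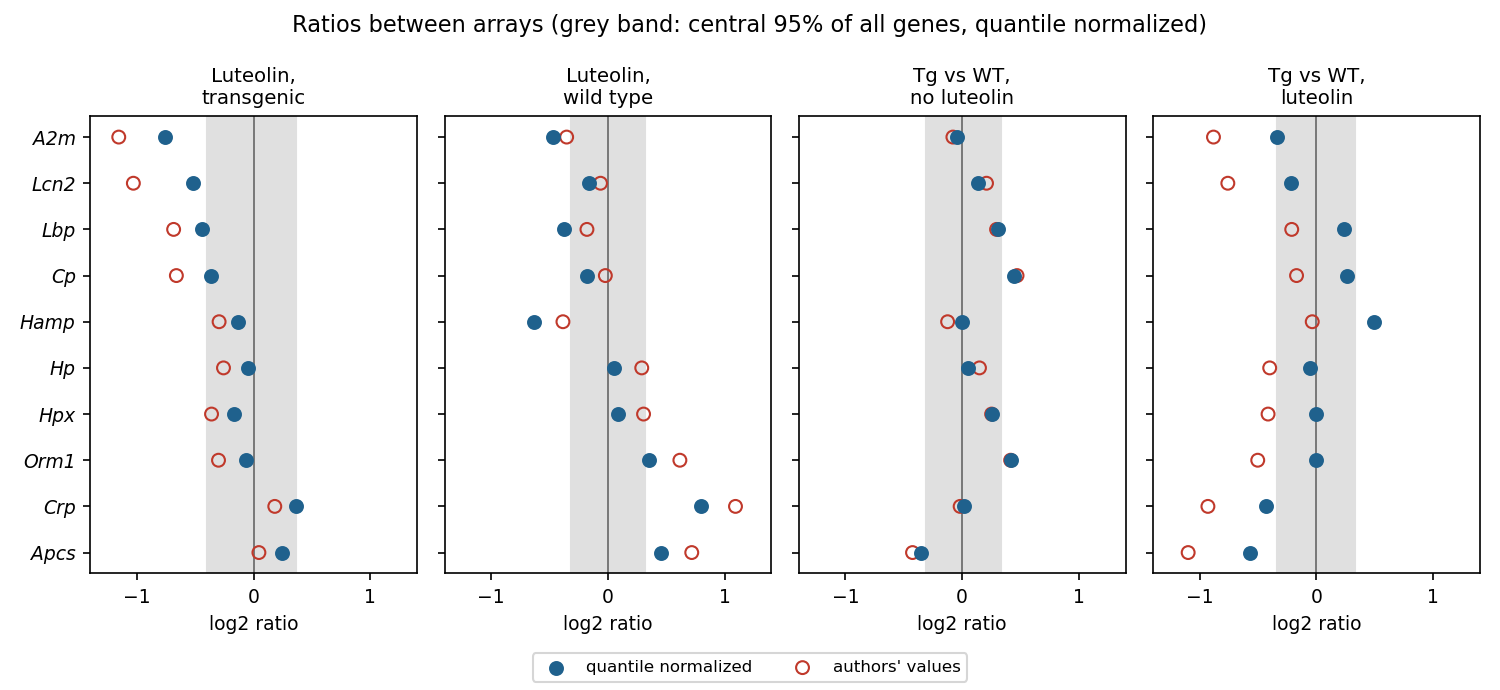
Log2 ratio (horizontal axis) of each acute phase gene (vertical axis) in the 4 comparisons of 2 arrays, with quantile-normalized values as filled points and the authors' values as open points. The grey band holds the central 95% of all genes, -0.40 to 0.36 for luteolin in transgenic and -0.31 to 0.31 in wild type. A2m, Lcn2 and Lbp lie left of the band in transgenic, and A2m, Lbp and Hamp lie left and Orm1, Crp and Apcs right of it in wild type.

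Over the 10 members, the median luteolin ratio was -0.15 in transgenic, where all genes had a median of 0.01, and -0.06 in wild type, where all genes had 0.00. In transgenic 8 of 10 members had a ratio below 0, against 45.4% of genes, and 2 above, against 54.4%. In wild type 5 of 10 lay on each side, against 49.9% of genes below 0 and 49.9% above. The list held members on both sides, so its median describes no single member well. The scaling moved this median and the other alternatives did not move it beyond the spread over genes. With each array centred on its median, the list's median was -0.40 in transgenic and 0.22 in wild type, a change of sign in the latter. The authors' values gave -0.33 and 0.13, but there the median ratio of all genes was itself -0.26 and 0.19.

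The 2 luteolin ratios share no array. For 9 of 10 members the ratio was lower in transgenic than in wild type, against 48.6% of genes, with Hamp the exception under quantile normalization and in the authors' values. Under quantile normalization the largest differences were those of Hamp (0.49), Crp (-0.44), Orm1 (-0.42) and Lcn2 (-0.35). There 3.46% of genes had a difference as large as that of Hamp. With median centring Hamp had the smallest difference of the members (-0.07), and in the authors' values too (0.09). Orm1 was then at -1.07 and -0.92, and Crp at -0.99 and -0.91. With the authors' values the count was 9 of 10 but 86.6% of genes were lower too, and with median centring it was 10 of 10 against 67%. With 1 array per group the difference between genotypes has no test.

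**Figure D3:**
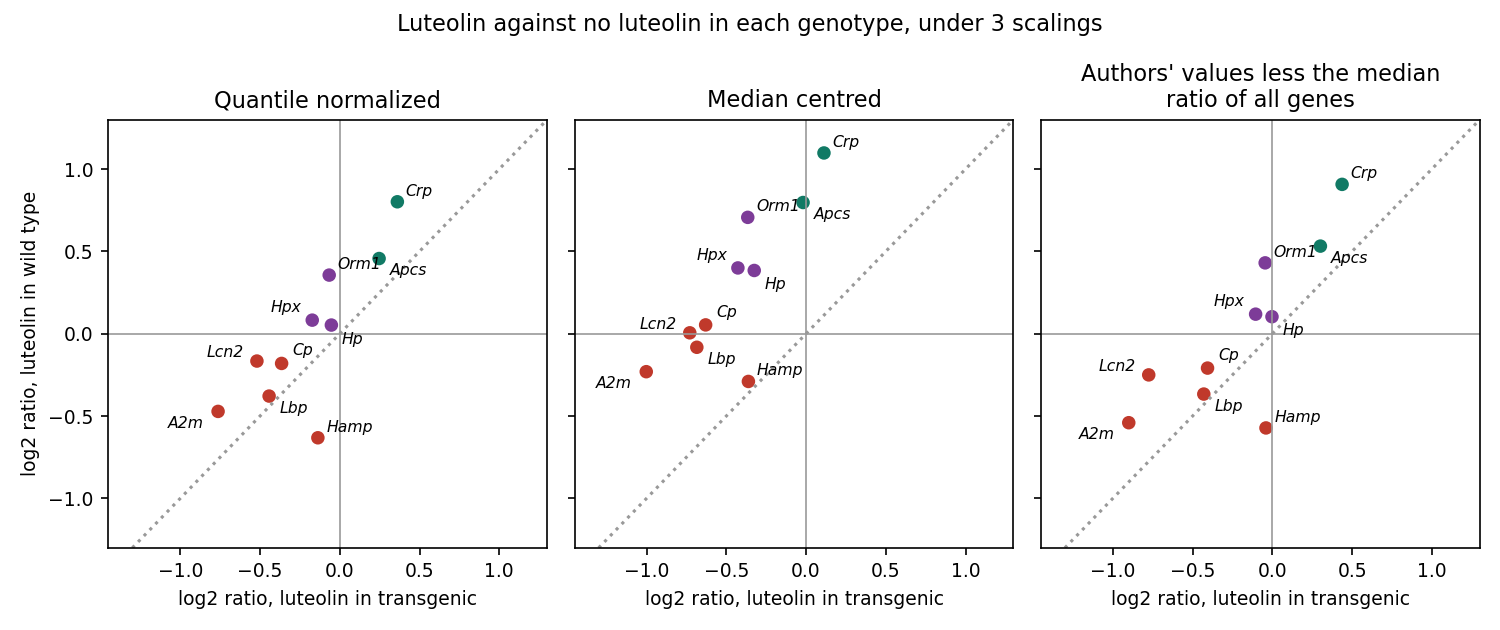
Log2 luteolin ratio of each member in transgenic (horizontal axis) against that in wild type (vertical axis) under quantile normalization, median centring, and the authors' values less the median ratio of all genes. The dotted line marks equal ratios. Under quantile normalization and in the authors' centred values A2m, Lcn2, Lbp, Cp and Hamp lie in the lower left and Crp and Apcs in the upper right. Median centring moves Cp and Lcn2 just above the horizontal zero line and Apcs just left of the vertical one.

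A fit across genes was possible only for effects averaged over the other factor. With 1 array per group, its residual holds the difference between the genotypes' luteolin ratios together with the spread between samples. Its SE and p therefore do not measure the spread between rats. In limma's additive model of genotype and luteolin, with 1 residual degree of freedom per gene, no gene of 14134 passed an adjusted p of 0.05 for luteolin, so 0% were called, while 1215 had an unadjusted p under 0.05. The smallest adjusted p in this limma fit was 0.562. At the unadjusted level 5 of 10 members stood, A2m, Lbp, Cp, Crp and Apcs, against 8.6% of genes. The mean luteolin difference over both genotypes was -0.62 for A2m (SE 0.10, limma adjusted p = 0.562), 0.58 for Crp (SE 0.14), -0.41 for Lbp (SE 0.04), 0.35 for Apcs (SE 0.07) and -0.27 for Cp (SE 0.07), all with the same adjusted p. When limma's prior variance was allowed to follow intensity, 326 genes passed for luteolin, and among members A2m (limma adjusted p = 0.0134, against 1.75% of genes called lower) and Crp (0.0390, against 0.552% called higher). No other member passed under either prior, and with the trend 6 of 10 had an unadjusted p under 0.05, against 11.2% of genes.

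The transgenic and wild-type livers were compared on each diet, which asks how blocked connexin 32 channels relate to expression in the same disease model. Without luteolin, 7 of 10 members had a higher value in transgenic, against 47.1% of genes, 3 had a lower one, against 52.7%, and the list's median ratio was 0.09. Cp was 1.36-fold higher (0.45), Orm1 1.34-fold (0.42), Lbp 1.24-fold (0.30) and Hpx 1.19-fold (0.25). Apcs was 1.28-fold lower in transgenic (-0.36). A2m (-0.04), Crp (0.01) and Hamp (-0.00) were nearly equal on these 2 arrays, and each of the 3 signs turned under another scaling, A2m to 0.15 and Hamp to 0.14 with median centring and Crp to -0.02 with the authors' values. No member reached 1.5-fold in either direction, against 0.692% of genes higher and 0.387% lower.

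With luteolin, the pentraxins were lower in transgenic than in wild type, Apcs with a ratio of -0.57 and Crp with -0.43. A2m was at -0.34 and Lcn2 at -0.22. These 4 ratios were negative under all 8 settings, although the probe filters and the mean of a gene's probes could not change them. Hamp was higher in transgenic (0.49), but -0.04 in the authors' values. Lbp (0.24) and Cp (0.26) were higher as well, and both turned negative with the authors' values and with median centring. The median over members was -0.03, 6 of 10 members were below 0 against 48.4% of genes, 3 were above against 51.4%, and 0 were 1.5-fold apart against 0.431% of genes higher and 0.445% lower. In the authors' values all genes had a median ratio of -0.42 here, and less that median Apcs stood at -0.68, Crp at -0.51, A2m at -0.46 and Hamp at 0.38.

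By limma's additive fit no gene passed for genotype at an adjusted p of 0.05 (0% of 14134), and 1019 genes, or 7.21%, had an unadjusted p under 0.05. Among these were 3 members, Apcs, Lbp and Cp. The mean transgenic difference over both diets was -0.46 for Apcs (SE 0.07), 0.27 for Lbp (SE 0.04) and 0.35 for Cp (SE 0.07), with a limma adjusted p = 0.686 for each. With the intensity trend 0.708% of genes passed as higher and 0.354% as lower in transgenic, among them 0 members, and 2 members had an unadjusted p under 0.05, against 8.95% of genes. For Cp both transgenic arrays lay above both wild-type arrays under quantile normalization (1 of 10 members, against 15.4% of genes). With median centring and in the authors' values its ratio with luteolin was -0.05 and -0.17. For Apcs both transgenic arrays lay below both wild-type arrays (1 of 10, against 17.4% of genes under quantile normalization).

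Other genes of the acute phase were listed with the members' results known. Of 30 other positive acute phase genes, 26 were above background on all arrays, and their median luteolin ratio was 0.00 in transgenic and -0.14 in wild type, or -0.25 and 0.07 with median centring. In wild type 18 of the 26 were lower with luteolin under quantile normalization, against 49.9% of all genes. Of these, 2 were lower by 1.5-fold or more, against 0.378% of all genes: the metallothionein Mt2A (-0.69) and the kininogen gene Kng1 (-0.65). With median centring both stood at -0.34, and with the authors' values at -0.45 and -0.44, under 1.5-fold. In transgenic Mt2A was higher (0.35) and Kng1 lower (-0.28). The interleukin 1 receptor antagonist Il1rn was at -0.60, the 1 gene of the list past 1.5-fold, against 1.03% of genes that far down. The pantetheinase Vnn1 was higher in wild type (0.34). Negative acute phase genes numbered 13 of 18, with a median of 0.22 in transgenic and 0.00 in wild type. With median centring these medians were 0.08 and 0.34. Under quantile normalization 10 of the 13 were higher in transgenic, against 54.4% of genes. Fetuin B (Fetub) was at 0.51 in transgenic and 0.33 in wild type and coagulation factor XII (F12) at 0.51 and 0.24. Corticosteroid-binding globulin (Serpina6) was lower in transgenic (-0.93), and the male-specific cytochrome Cyp2c11 was 3.42-fold higher in wild type (1.78).

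Of 11 cytokines upstream, 6 were above background on all 4 arrays, and Il6, Osm, Lif, Il11 and Il22 were not, as found after their values were seen. Il1b, named after its values were seen, had a luteolin ratio of -0.13 in transgenic and 0.05 in wild type. Among those measured, the chemokine Ccl2 had a luteolin ratio of -0.71 in transgenic and 0.16 in wild type, and the neutrophil attractant Cxcl1 of -0.16 and -0.54. Il1a was at 0.16 and -0.09. Of 28 receptors and signalling genes 24 were measured, with a median of 0.03 in transgenic and -0.01 in wild type and none 1.5-fold apart with luteolin. With median centring these medians were -0.07 and 0.08. The acute phase transcription factor Cebpb had luteolin ratios of -0.37 in transgenic and -0.22 in wild type, the latter 0.09 with median centring, and was higher in transgenic without luteolin (0.55) and with it (0.40), the latter -0.08 in the authors' values. Under quantile normalization its order over the arrays, 10.66, 10.29, 10.11 and 9.89, was that of Cp. Over 4 arrays many genes share an order, and a link between Cebpb and Cp was not tested. The NF-kB inhibitor Nfkbia was at -0.24 and -0.08 with luteolin (0.19 in wild type with median centring), the TNF receptor Tnfrsf1a at 0.08 (-0.18 with median centring) and -0.39, and Gadd45b at -0.30 and 0.03.

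Among 23 measured genes of iron and hepcidin control, the median luteolin ratio was 0.02 in transgenic and 0.05 in wild type. With median centring it was -0.13 and 0.19. Id1, a target of BMP signalling, had a luteolin ratio of -0.70 in wild type, as Hamp was lower there, but of 0.41 in transgenic. Its values were 8.32, 8.73, 8.84 and 8.13, so under quantile normalization it was lowest on the last array, as Hamp was. In the authors' values Hamp was lowest on the transgenic luteolin array, and a link between Id1 and Hamp was not tested. Ferroportin (Slc40a1), the iron exporter that hepcidin binds, was at -0.35 in wild type and 0.05 in transgenic, the latter -0.19 with median centring. Hemojuvelin (Hjv), the BMP co-receptor upstream of Hamp, was lower in transgenic than in wild type by -0.84 without luteolin and -0.60 with it. Tmprss6, the protease that cleaves hemojuvelin, had a luteolin ratio of 0.52 in transgenic and -0.04 in wild type, the latter 0.24 with median centring. Globins, the cargo of haptoglobin, were higher with luteolin in both genotypes, Hbb by 1.07 and 0.85 and Hba-a1 by 0.99 and 0.77.

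**Figure D4:**
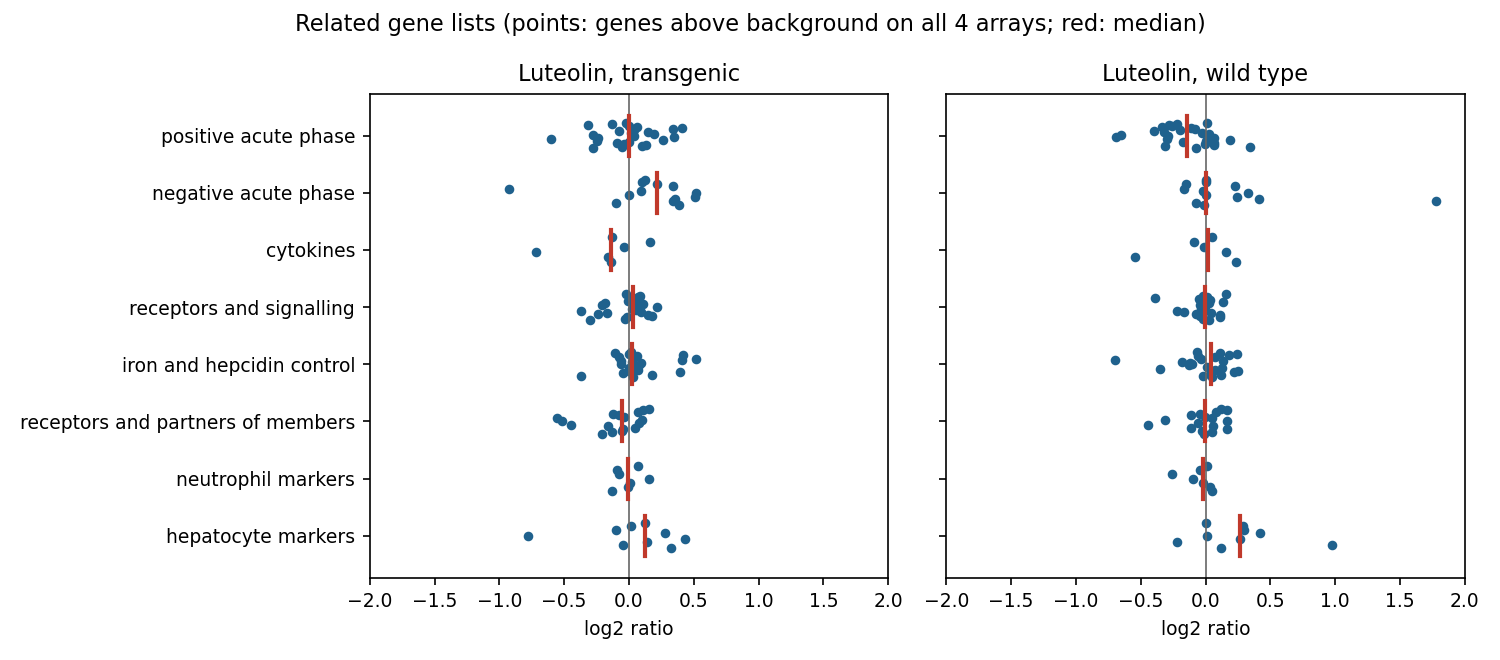
Log2 luteolin ratio (horizontal axis) of genes in 8 related lists (vertical axis) in transgenic and in wild type. Each point is a gene above background on all 4 arrays and red bars are medians, which under quantile normalization run from -0.14 for cytokines to 0.22 for negative acute phase genes in transgenic and from -0.14 for positive acute phase genes to 0.27 for hepatocyte markers in wild type.

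Of the 17 receptors and partners of the members, all were measured, with a median luteolin ratio of -0.05 in transgenic and 0.00 in wild type. With median centring it was -0.29 and 0.18. Fcgr2b, an inhibitory Fc receptor, was at -0.44 in transgenic and -0.45 in wild type. Ly96, the MD-2 subunit that joins TLR4, was at -0.56 and 0.05, the activating Fc receptor Fcgr1a at -0.52 and 0.16, and the endotoxin receptor Cd14 at 0.10 (-0.15 with median centring) and -0.31. Markers of other cells also differed between arrays, here under quantile normalization. Stellate cell markers had a median luteolin ratio of -0.56 in transgenic (6 of 6 lower, against 45.4% of genes) and 0.00 in wild type. The collagen genes Col3a1 and Col1a1 were at -1.56 and -1.33 in transgenic. Cholangiocyte markers had medians of -0.20 and -0.08, with 6 of 7 lower in transgenic, against 45.4% of genes. In wild type 7 of 7 were lower, against 49.9%. In the authors' values less the median ratio of all genes these medians were -0.86 and -0.53. The part of these cells in the members' ratios was not tested. For macrophages the median was 0.04 and -0.04, or -0.12 and 0.11 with median centring. Under quantile normalization 5 of 8 markers were higher in transgenic, against 54.4% of genes, and 6 were lower in wild type, against 49.9%. Cd68 was at -0.67 in transgenic, Aif1 at -0.44 in transgenic and -0.48 in wild type, and Cd5l at 0.19 and -0.34. The medians were for endothelium -0.15 and -0.07, and for T cells and B cells it lay between -0.02 and 0.00, with the few T and B cell genes close to background.

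Some genes had nearly the same profile as a member over the 4 arrays, measured as the root mean square difference of log2 intensities centred on each gene's mean, among 11165 genes with a certain name. Nearest to A2m were Kpna2 (0.08), Slc38a2 (0.08) and Smc4 (0.12), and nearest to Lbp were Akr7a3, Fcgr2b and Serpinb6a (0.02 to 0.03). For Cp these were Cotl1, Folr2 and Arl11 (0.01 to 0.03), and for Hamp Zfp592, RT1-Db1 and Oasl (0.04 to 0.05). Crp lay nearest to Tmem86b, Glud1 and Car3 (0.08 to 0.10), and Apcs to Slc27a2, Cxcl11 and Pnpla5 (0.03 to 0.06). Over 4 arrays many genes share an order, so these distances are a description. No member was among the 3 nearest genes of another.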

How the data were processed

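Per the labels' protocols, liver total RNA underwent amplification and Cy5 labelling, and each of the 4 samples has an array of its own. The deposited tables give, per the file headers, the raw spot intensity, the intensity after background subtraction and a globally normalized intensity. From the values, the authors subtracted 1 constant per array (37.5 to 39.8), left probes at or below it blank, and multiplied by 1 factor per array (0.696 to 0.892) to reach a median of 25. The scanner, software and genome build are not stated in the sources used here. The deposited series table holds the same values within 0.500.

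From the raw intensities, background was corrected with normexp (offset 50), log2 taken and the 4 arrays quantile normalized in limma 3.58.1 (R 4.3.3). Raw values that are whole numbers occur only among the brightest probes (10 to 16 per array). Probes were named through RefSeq accession, Entrez identifier or symbol, and 1990 had no name. For 86 genes with several probes the brightest was kept. Above background were 72.5% to 78.7% of probes per array. The 2 values flagged as not OK were left out. Ratios between 2 arrays used genes above background on both and carry no p-value. The only test was limma's additive model of both factors (lmFit, then eBayes) with Benjamini-Hochberg adjustment over 14134 genes. On simulated arrays for the luteolin term this fit called 38 of 100 genes changed by a log2 of 2. It called 0 of 100 changed by a log2 of 1. With the intensity trend it called 0 and 0, although genes did pass that fit on the real arrays. Simulated noise took each gene's spread from genes of like brightness, so these calls cannot give the fit's power on the real arrays.

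All 10 members are named whatever their values. Genes of related lists were eligible if among the 4 with the largest range over the arrays or at 2-fold or more. All of the latter are named, and of the former only a part in the marker lists. For members with a range of at least 0.6 the 3 nearest profiles are given. Il1b and genes listed as not above background were named after their values were seen. The members and lists were chosen with earlier results of these data known. Alternatives were median centring, the authors' values, an offset of 16, stricter and no filters on dim probes, the mean of a gene's probes, a running median along the deposited rows, and limma's intensity trend.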

Additional observations from a re-analysis of the deposited data

Results flagged for a closer look

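Under quantile normalization the luteolin ratio or the genotype ratio pointed in opposite directions in the groups compared for 6 members. Of all genes, 25.1% had a luteolin ratio below 0 in both genotypes and 29.8% above 0 in both. Opposite directions were therefore common, and the share of genes with them in either ratio was not counted. The values below are the luteolin log2 ratio in transgenic minus that in wild type, with 1 array per group, and none of these differences was tested. For Hp (-0.11), Hpx (-0.25) and Orm1 (-0.42), the luteolin ratio was below 0 in transgenic and above 0 in wild type. The difference was -0.44 for Crp and -0.35 for Lcn2, whose transgenic against wild-type ratio was above 0 without luteolin and below 0 with it. For Hamp it was 0.49, with a transgenic against wild-type ratio of -0.00 without luteolin and 0.49 with it. With median centring the Hamp difference was -0.07, with genotype ratios of 0.14 and 0.06, and in the authors' values 0.09, with -0.12 and -0.04, so the opposite directions were then absent. The same held for Crp in the authors' values, with genotype ratios of -0.02 and -0.93. Median centring also added opposite directions. The genotype ratio without and with luteolin was then 0.15 and -0.62 for A2m, 0.51 and -0.10 for Lbp and 0.63 and -0.05 for Cp. For Apcs the luteolin ratio was then -0.02 in transgenic and 0.80 in wild type.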

How the results depend on the processing

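The median ratio over members with luteolin in transgenic was -0.40 with median centring and -0.33 with the authors' values, and in wild type 0.22 and 0.13. In transgenic against wild type it was 0.37 and 0.18 without luteolin, and -0.36 and -0.46 with luteolin. Members at 1.5-fold or more with luteolin in transgenic numbered 4 with median centring, 4 with the authors' values and 2 with an offset of 16, against 3.35%, 20.2% and 2.94% of genes. In transgenic against wild type they numbered 2 without luteolin (median centring, against 1.74% of genes), and with it 3 (median centring, against 4.02%) and 4 (authors' values, against 31.1%). With luteolin in wild type there were 2, and 3 with median centring, the authors' values or the running median, where A2m (-0.59) joined Hamp and Crp. Genes passing limma for luteolin numbered 326 with the intensity trend, 79 with the authors' values, 1 with an offset of 16 and 192 of 5954 with a background-subtracted intensity of at least 50. For genotype they numbered 150, 26, 0 and 126. The cause was not tested. Of the single member ratios under the alternatives, 203 moved by less than the spread over genes and 77 by more. Median centring moved 40 by more and the authors' values 32, with 8 moved by less. The stricter filter, no filter and the mean of a gene's probes each left 40 the same. These 3 could not change a member, since each has 1 probe that passes the filters. The count of members with a lower luteolin ratio in transgenic was tried under alternatives chosen after seeing the data. No paired analysis was possible because the labels carry no replicate numbers and each group has 1 array, and no array could be left out of the fit, which would have no residual degrees of freedom.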
